A study of Mus musculus with 8 samples.

Results

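The genes described here are the insulin-like growth factor (IGF) ligands Igf1 and Igf2, the receptors Igf1r and Igf2r and the binding proteins Igfbp2 to Igfbp7 in mouse adipose-derived stem cells (ADSCs). They were chosen by gene symbol, with earlier results of these data known. All 10 were among the 24346 genes listed and the 18862 tested. IGF-I and IGF-II are secreted hormones that bind the receptor tyrosine kinase encoded by Igf1r, which signals through the PI3K/AKT and RAS/MAPK arms to growth and survival. Igf2r encodes a receptor without kinase activity that carries IGF-II and mannose-6-phosphate-tagged enzymes to lysosomes. The binding proteins hold the ligands outside the cell, and proteases that cut them release the ligands again. In fat, IGF-I supports the growth of preadipocytes and their differentiation.

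The study compared cells labelled as ADSCs, grown either as a conventional 2D culture or in Matrigel as a 3D organotypic culture. The cells came from gonadal adipose tissue of wild-type male BALB/c mice aged 12 weeks, and each library was total RNA of 1 culture of 1 mouse, with no transgene or knockout in either group. There were 4 libraries of each culture, in 2D of the mice numbered 2 to 5 and in 3D of those numbered 1, 4, 5 and 7. Both cultures were thus available from mouse 4 and from mouse 5. The title puts the library of mouse 1 in 3D, but its short description ends in a number where those of the other libraries end in the culture. The passage of the sequenced 3D cultures and the Wnt3a and R-Spondin1 content of their medium are not given in the sources used here. In bulk RNA, fewer cells of a type and less RNA per cell cannot be told apart.

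The deposited values were FPKM (fragments per kilobase of transcript, scaled to the mapped fragments of a library), and the estimated depth was 16.4 to 17.4 M fragments in 2D and 14.5 to 15.6 M in 3D. Pearson's r of the log2 values was 0.932 to 0.974 between libraries within a culture and 0.758 to 0.823 between cultures. The libraries differed in their marker genes along the same line. Of 12 stromal markers, 11 were lower in 3D, and their summed level was 2098 to 4530 FPKM in 2D and 4.78 to 8.71 FPKM in 3D. The 3D libraries thus went against the mesenchymal stem cell label for these markers, with Col1a2, Col3a1, Pdgfra, Pdgfrb, Dcn, Zeb1 and Zeb2 at or below 0.1 FPKM in every 3D library. Twist1 was lower but stayed at 4.59 to 7.99 FPKM in 3D. Lum, the stromal marker not called, was at 0 in 3D and at most 0.988 FPKM in 2D. The 8 surface markers were mixed, with 4 lower and 1 higher in 3D and overlapping sums (1107 to 1583 FPKM in 2D, 429 to 3413 FPKM in 3D). Thy1 was at 66.5 to 279 FPKM in 2D and at most 0.0554 FPKM in 3D. The marker higher in 3D was Ly6a, which encodes Sca-1, at 24.0 to 165 FPKM in 2D and 58.6 to 3117 FPKM in 3D. Cd44, Nt5e and Alcam were not called. Of 15 epithelial markers, 14 were higher in 3D, and their sum was 32.0 to 694 FPKM in 2D and 2845 to 3318 FPKM in 3D. All 5 smooth muscle and pericyte markers were lower in 3D (sums of 696 to 2868 FPKM and 0.748 to 0.973 FPKM). A mesothelial list of 9 listed genes summed to 888 FPKM in mouse 3 and 2266 FPKM in mouse 4 in 2D. Its sums were 27.8 and 28.6 FPKM for mice 2 and 5 in 2D and 91.1 to 200 FPKM in 3D. Krt19, which is also in the epithelial list, made up most of each of these lower sums, at 88.5 to 194 FPKM in 3D. Msln was at 0.506 to 33.6 FPKM in 3D, and every other gene of the mesothelial list was at most 1.01 FPKM there. Macrophage markers summed to 2.07 to 21.3 FPKM in 2D and 6.25 to 42.3 FPKM in 3D with Cd68 higher in 3D (5.98 to 36.3 FPKM against 0.874 to 3.01 FPKM), Lyz2 at 0.227 to 18.7 FPKM in 2D and 0 in 3D, and Ptprc at most 0.0779 FPKM. Endothelial markers summed to at most 6.79 FPKM. The 6 adipocyte markers summed to 12.9 to 48.2 FPKM in 2D and 0.0799 to 0.546 FPKM in 3D, with Lpl and Pparg lower in 3D and Adipoq and Lep listed at 0 everywhere. How far these differences in cell markers account for the differences below was not tested.

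In 3D, the transcripts of both receptors and of Igfbp2 and Igfbp5 were higher, and those of Igf1, Igfbp4, Igfbp6 and Igfbp7 were lower. This made 8 of 10 genes with an adjusted p below 0.05 (limma on log2 of quantile-normalized FPKM + 1, Benjamini-Hochberg adjustment over 18862 genes), where 41.5% of all genes tested were called. Of all genes tested, 21.2% were called higher and 20.3% lower in 3D, against 4 and 4 of the 10. At a mean of at least 1 FPKM, which leaves out Igf2, 4 of the IGF genes were higher and 5 lower. Of all 12577 genes at that level, 3542 were higher and 3461 lower, a larger share than over all genes tested. After quantile normalization, the 2D and 3D libraries did not overlap for 9 of 10 genes, against 42.5% of all genes, with Igfbp3 as the exception. In 4 of them 3D lay above 2D (21.6% of all genes) and in 5 of them 2D lay above 3D (20.9% of all genes). On the values as deposited, Igf2 and Igf2r overlapped as well, which left 7 of 10 genes apart, against 45.5% of all genes. The median absolute log2 fold change was 2.61 over the 10 genes and 0.38 over all genes tested, and the median signed log2 fold change was -1.02 and 0.00, respectively. All genes tested include many with a mean under 1 FPKM, for which the added 1 holds differences near 0. These medians are thus not matched for level. The 10 genes were also chosen with earlier results of these data known. The shares and medians therefore cannot be read as an excess of the family. Below, levels are normalized FPKM, log2 fold changes are 3D minus 2D on the log2(FPKM + 1) scale with the standard error (SE), and adjusted p-values are from the limma fit over all genes.

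**Figure D1:**
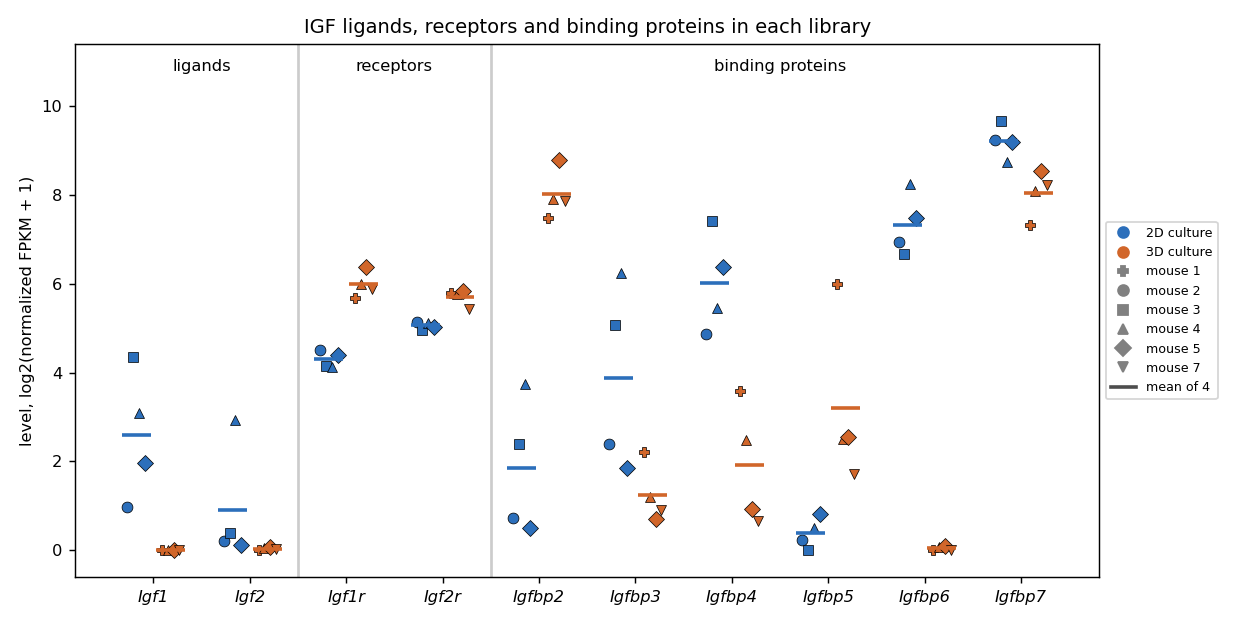
Normalized FPKM of the 10 IGF genes in each of the 8 libraries, on an axis of log2(FPKM + 1), with 1 point per library and the bar at the mean of 4. Igfbp6 and Igf1 lie near 0 in all 3D libraries, Igfbp2 lies above 100 FPKM in all 3D libraries, and Igfbp3 is the gene whose libraries overlap between the cultures.

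The start regions of the 4 binding protein genes with the largest fitted differences among those called are printed here, since these genes moved in opposite directions and Igfbp2 and Igfbp5 are neighbours. Each is the 250 bases before the RefSeq start of the gene (GRCm38.p6), in the direction of transcription, in lower case with matches to a GC box (GGGCGG) or a TATA box (TATAAA), on either strand, in capitals. The windows are chr1:72824230-72824479 on the plus strand for the first start of Igfbp2, chr1:72874866-72875115 on the minus strand for Igfbp5, chr11:99040994-99041243 on the plus strand for Igfbp4 and chr15:102143936-102144185 on the plus strand for Igfbp6.
Igfbp2: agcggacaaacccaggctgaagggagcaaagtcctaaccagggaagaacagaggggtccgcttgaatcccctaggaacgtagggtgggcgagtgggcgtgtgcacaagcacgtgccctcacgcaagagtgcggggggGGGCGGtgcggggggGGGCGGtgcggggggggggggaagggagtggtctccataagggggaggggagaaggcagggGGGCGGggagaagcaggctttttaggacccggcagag
Igfbp5: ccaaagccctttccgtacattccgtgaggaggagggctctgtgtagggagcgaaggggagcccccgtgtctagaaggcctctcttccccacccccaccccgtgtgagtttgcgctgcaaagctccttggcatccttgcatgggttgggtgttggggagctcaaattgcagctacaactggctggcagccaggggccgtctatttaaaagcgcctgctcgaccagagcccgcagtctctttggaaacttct
Igfbp4: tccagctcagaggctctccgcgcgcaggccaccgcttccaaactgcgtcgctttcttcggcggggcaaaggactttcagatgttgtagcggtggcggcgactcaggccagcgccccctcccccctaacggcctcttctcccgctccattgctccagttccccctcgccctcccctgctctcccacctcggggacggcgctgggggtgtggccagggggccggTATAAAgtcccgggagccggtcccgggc
Igfbp6: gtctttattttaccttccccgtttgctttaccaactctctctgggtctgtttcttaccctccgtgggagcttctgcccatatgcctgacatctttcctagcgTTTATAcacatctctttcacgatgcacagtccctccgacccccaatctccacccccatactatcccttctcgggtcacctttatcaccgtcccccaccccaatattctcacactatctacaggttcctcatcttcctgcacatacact
The printed Igfbp2 window held 3 GC boxes and no TATA box, the window of its other RefSeq start held neither, and the Igfbp5 window held neither. The windows of Igfbp4 and Igfbp6 each held 1 TATA box and no GC box, that of Igfbp6 being on the opposite strand (TTTATA) and further from the start. Igfbp7, lower in 3D, had 4 GC boxes and no TATA box in its window. Of the 32851 RefSeq windows of this length, 32.7% held a GC box and 12.4% a TATA box. An E-box (CAGGTG, on either strand) stood in 17.2% of all windows and in none of these 4. Among the 14 windows of the 10 genes, it stood in those of Igfbp3 and Igf2r. The GC content was 67.2% for Igfbp2, 58.8% for Igfbp5, 69.2% for Igfbp4 and 49.6% for Igfbp6, beside a median of 52.4% over all windows. These matches describe letters and do not show binding. For the printed windows of Igfbp2 and Igfbp6, the first bases after the RefSeq start were in no annotated transcript of the gene. The same held for the windows of Igfbp7, Igf1r and Igf2r. Those starts thus do not match the annotation used for the coordinates. The printed Igfbp6 window ends at base 102144185, before the annotated gene start at base 102144362.

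Both ligands were near 0 in every 3D library. Igf1 (chr10:87858265-87937042, plus strand, GRCm38) encodes IGF-I. It was at 0.975, 19.3, 7.51 and 2.89 FPKM in 2D (mice 2 to 5, in order) and at 0.00279, 0.00658, 0 and 0.00948 FPKM in 3D (mice 1, 4, 5 and 7, in order). All 2D libraries thus lay above all 3D libraries, and within 2D the levels of mice 3 and 4 were the highest. The 3D values correspond to at most 1 fragment per library and the 2D values to 77 to 2367 fragments. The log2 fold change was -2.59 (SE 0.65, adjusted p = 0.0143, limma). Set against the highest level that 3 fragments give in a 3D library, the mean deposited level in 2D made Igf1 at least 255-fold lower in 3D, and at least 115-fold lower without the 2D library of mouse 3. Such bounds cover counting error only.

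Igf2 (chr7:142650766-142666816, minus strand) encodes IGF-II, the fetal growth factor that is expressed from the paternal allele. Its level in 2D was 0.154, 0.314, 6.59 and 0.0797 FPKM in mice 2, 3, 4 and 5, and in 3D it was 0, 0.0320, 0.0524 and 0.0165 FPKM in mice 1, 4, 5 and 7. The normalized values did not overlap, whereas those deposited did, with 0.0495 FPKM for mouse 5 in 2D and 0.0512 FPKM for mouse 5 in 3D, both near the level of 3 fragments. The 2D library of mouse 4 stood far above the other 3. The log2 fold change was -0.87 (SE 0.60, 95% confidence interval from -2.26 to 0.51) and was not called (adjusted p = 0.283, limma). Without that library it was -0.20 (adjusted p = 0.0503, limma). Igf2 shares 3596 exon bases with Gm49394 on the same strand and 98 with Igf2os on the opposite strand, and the use of strand in counting is not stated. The summed level of both ligands was 1.13 to 19.6 FPKM in 2D and 0.00279 to 0.0524 FPKM in 3D.

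Both receptor transcripts rose in 3D. Igf1r (chr7:67952827-68233668, plus strand) was at 21.8, 16.8, 16.4 and 20.2 FPKM in 2D and at 50.3, 62.6, 82.8 and 58.0 FPKM in 3D, in the order of mice given above. The lowest 3D library lay above the highest 2D library. The means were 18.8 ± 2.61 and 63.4 ± 13.9 FPKM (SD, n = 4 each), with a log2 fold change of 1.69 (SE 0.16, adjusted p = 1.6e-04, limma).

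Igf2r (chr17:12682406-12769664, minus strand) was at 34.2, 30.3, 33.8 and 31.7 FPKM in 2D and at 54.2, 53.5, 56.2 and 42.3 FPKM in 3D. These groups were apart after normalization but not as deposited, where the lowest 3D library (37.3 FPKM, mouse 7) lay below the highest 2D library (38.3 FPKM, mouse 2). The log2 fold change was 0.64 (SE 0.10, adjusted p = 0.00169, limma), and it was 0.31 on the values as deposited (adjusted p = 0.0370, limma, within a range of 5.1e-04 to 0.0405 over the alternatives without a mouse block). In the annotation the antisense transcript Airn lies across Igf2r but shares no exon bases with it. The ratio of Igf1r to Igf2r, both per length, was 0.484 to 0.637 in 2D and 0.928 to 1.47 in 3D. In 2D, every library thus had more Igf2r than Igf1r, whereas in 3D this held for mouse 1 alone.

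The binding proteins differed in direction. Igfbp2 (chr1:72824503-72852474, plus strand) encodes a binding protein with an integrin-binding motif that circulates and also acts at the cell surface. It was at 0.648, 4.28, 12.3 and 0.422 FPKM in 2D and at 178, 241, 442 and 233 FPKM in 3D. The lowest 3D library lay far above the highest 2D library, and the 2D libraries of mice 3 and 4 were above those of mice 2 and 5. The means were 4.43 ± 5.57 and 274 ± 116 FPKM (SD, n = 4 each), a ratio of 61.8 that became 153 without the 2D library of mouse 4, and the log2 fold change was 6.17 (SE 0.72, adjusted p = 3.9e-04, limma).

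Igfbp5 (chr1:72857932-72874884, minus strand) encodes a binding protein that attaches to extracellular matrix. It lies tail to tail with Igfbp2, 5457 bases away. Its level was 0.172, 0, 0.409 and 0.764 FPKM in 2D and 63.0, 4.65, 4.90 and 2.30 FPKM in 3D. All 3D libraries were above all 2D libraries, and that of mouse 1 was far above the other 3D libraries. The log2 fold change was 2.81 (SE 0.87, adjusted p = 0.0331, limma), and without that library it was 1.87 (adjusted p = 0.00213, limma). Leaving out the 2D library of mouse 2, 3, 4 or 5, or the 3D library of mouse 5, ended the call (adjusted p of 0.0700, 0.0727, 0.0598, 0.0542 and 0.0533, limma). Over the alternatives without a mouse block its adjusted p ranged from 0.00213 to 0.0727.

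Igfbp6 (chr15:102144362-102149511, plus strand) encodes the binding protein that prefers IGF-II. It was at 121, 101, 305 and 177 FPKM in 2D and at 0, 0.0523, 0.0623 and 0 FPKM in 3D. No 3D library held more than 1 fragment of it, whereas the 2D libraries held 2140 to 6826 fragments. The log2 fold change of -7.29 (SE 0.32, adjusted p = 2.8e-06, limma) was the largest in size among the 10 genes. Against the level of 3 fragments, Igfbp6 was at least 1142-fold lower in 3D, and at least 890-fold lower without the 2D library of mouse 4.

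Igfbp4 (chr11:99041244-99054392, plus strand) encodes a binding protein that restrains IGF action until it is cut by pappalysin. It was at 28.2, 171, 42.7 and 81.8 FPKM in 2D and at 11.1, 4.56, 0.918 and 0.589 FPKM in 3D. All 2D libraries were above all 3D libraries, with a wide spread in both cultures. The means were 80.8 ± 64.0 and 4.29 ± 4.87 FPKM (SD, n = 4 each), and the log2 fold change was -4.11 (SE 0.78, adjusted p = 0.00432, limma).

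Igfbp7 (chr5:77349240-77408041, minus strand) encodes a secreted protein with low affinity for IGFs that is also deposited around vessels. It was at 606, 816, 427 and 580 FPKM in 2D and at 158, 273, 373 and 297 FPKM in 3D. It remained among the highest of the 10 genes in both cultures, with all 2D libraries above all 3D libraries. The means were 607 ± 160 and 275 ± 89.0 FPKM (SD, n = 4 each), and the log2 fold change was -1.17 (SE 0.29, adjusted p = 0.0150, limma). With mice 4 and 5 alone it was -0.64 and not called (adjusted p = 0.191, limma, the highest over the alternatives without a mouse block, of which the lowest was 0.00200). Igfbp7 shares 85 exon bases with Polr2b on the opposite strand.

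Igfbp3 (chr11:7206086-7213923, minus strand) encodes the main IGF carrier of serum. It was at 4.28, 32.5, 74.3 and 2.62 FPKM in 2D and at 3.63, 1.29, 0.633 and 0.863 FPKM in 3D. The groups overlapped, since the 2D level of mouse 5 lay below the 3D level of mouse 1. The log2 fold change of -2.64 (SE 0.98, 95% confidence interval from -4.91 to -0.36) was not called (adjusted p = 0.0649, limma). It passed with genes of a mean of at least 1 FPKM (adjusted p = 0.0408), with a pseudocount of 0.1 (0.0399) and without the 2D library of mouse 5 (0.0275), within a limma range of 0.0275 to 0.272.

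In 2D, the 2 libraries with the highest Igf1, Igfbp2 and Igfbp3 were those of mice 3 and 4, and the highest Igf2 was that of mouse 4. The same 2 libraries had the high sums of the mesothelial list, 888 and 2266 FPKM, and of the epithelial list, at 177 and 694 FPKM against 32.0 and 32.4 FPKM in mice 2 and 5. The part of these cell markers in the spread of the IGF genes was not tested.

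**Figure D2:**
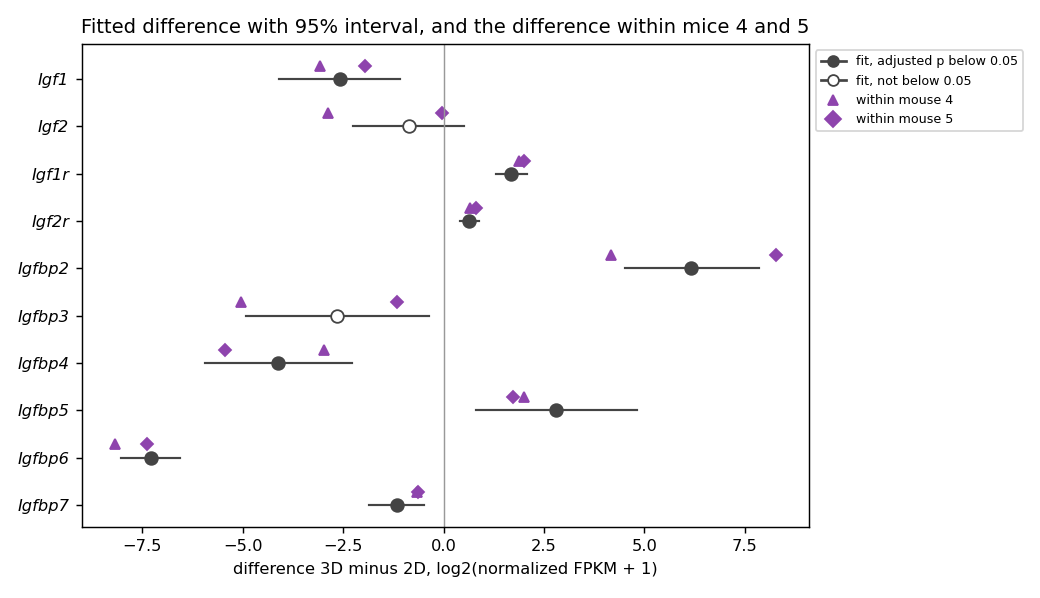
Fitted log2 fold change (3D minus 2D, log2(FPKM + 1)) of the 10 genes with its 95% confidence interval, with the differences within mice 4 and 5 as separate points. The interval of Igf2 reaches across 0, and in both mice all 10 normalized differences have the sign of the fit, that of Igf2 in mouse 5 being -0.04 and of the opposite sign on the deposited values.

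In mice 4 and 5, which gave both cultures, the 3D minus 2D difference of normalized values had the same sign as in the fit for all 10 genes in both mice. On the deposited values this held for 10 genes in mouse 4 and 9 in mouse 5, where the Igf2 levels were nearly equal and of the opposite order. Igf1r differed by 1.87 and 1.99 and Igf2r by 0.65 and 0.81 on the log2(FPKM + 1) scale in mice 4 and 5, respectively. For Igfbp6 the differences were -8.18 and -7.39 on that scale. The mice differed most for Igfbp2 (4.18 and 8.28) and Igfbp3 (-5.04 and -1.15), for which the 2D library of mouse 4 was higher than that of mouse 5. Igf2 differed by -2.88 in mouse 4 and by -0.04 in mouse 5. When the mouse was added to the fit as a block, with 1 residual degree of freedom left, 0 of 10 genes had an adjusted p below 0.05 in limma, and the 8 called genes had adjusted p-values of 0.111 to 0.172. All 8 had an unadjusted p below 0.05 in that fit.

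The composition of the binding protein transcripts shifted from Igfbp7 and Igfbp6 to Igfbp7 and Igfbp2. As shares of the summed FPKM of the 6 binding proteins in 2D, Igfbp7 held 67.7% ± 12.9 (SD, n = 4), Igfbp6 20.3% ± 11.2, Igfbp4 8.39% ± 5.21 and Igfbp3 3.10% ± 3.86, and Igfbp2 held 0.0501% to 1.43%. In 3D, Igfbp7 held 47.8% ± 7.66 and Igfbp2 46.6% ± 4.94 (SD, n = 4). Igfbp5 held 15.2% in the 3D library of mouse 1 and at most 0.888% in the other 3. Igfbp6 and Igfbp7 together made 81.5% to 95.6% in 2D, and Igfbp2 and Igfbp7 together made 81.2% to 99.3% in 3D. The summed level itself was 760, 1125, 862 and 842 FPKM in 2D and 414, 524, 821 and 534 FPKM in 3D. These sums overlapped between the cultures, as the 3D library of mouse 5 lay above the 2D library of mouse 2. No test was run on shares or sums.

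**Figure D3:**
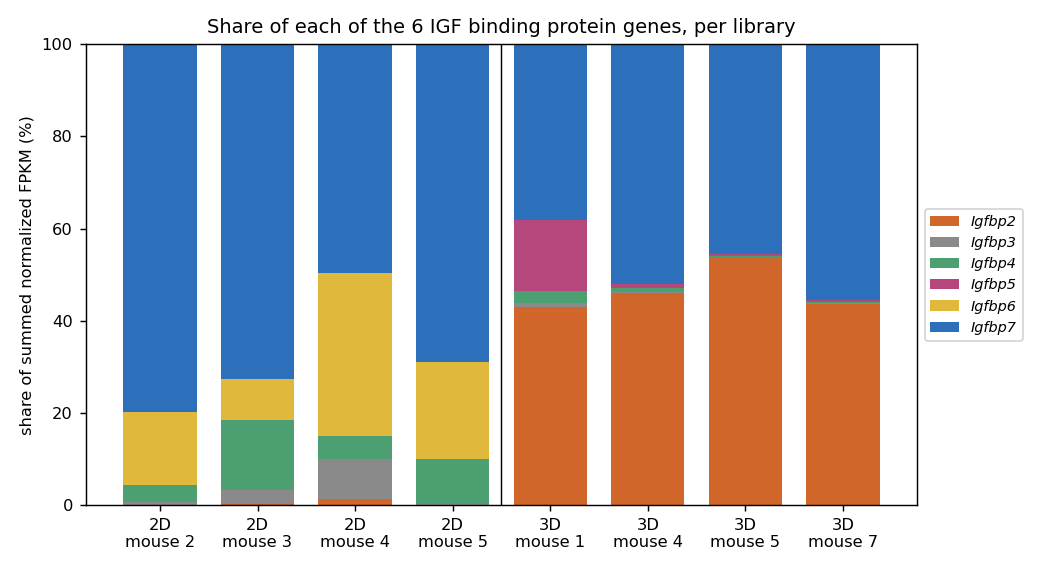
Share of each of the 6 binding protein genes in their summed normalized FPKM (percent), with 1 stacked bar per library. Igfbp6 fills 8.96% to 35.4% of the 2D bars and at most 0.00998% of the 3D bars, where Igfbp2 fills 43.0% to 53.8%.

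Ordered by mean level in 2D, Igfbp7 led, followed by Igfbp6, Igfbp4, Igf2r, Igfbp3, Igf1r, Igf1, Igfbp2, Igf2 and Igfbp5. Only Igfbp7 was above its next gene without overlap between libraries in this order. In 3D the order was Igfbp7, Igfbp2, Igf1r, Igf2r, Igfbp5, Igfbp4 and Igfbp3, with Igfbp6, Igf2 and Igf1 last and in no order, at or near the level of 3 fragments or under it. Here Igfbp7 and Igfbp2 overlapped, all libraries of Igfbp2 were above all of Igf1r, and all of Igfbp3 were above all of the last genes. The remaining neighbours in the 3D order overlapped.

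A list of 60 further genes around the pathway was read from the same fit. Of the 59 tested, 10 were higher and 18 lower in 3D, which is 47.5% beside 41.5% of all genes. At a mean of at least 1 FPKM, 10 genes of the list were higher and 15 lower. Of all 12577 genes at that level, 3542 were higher and 3461 lower, a larger share than over all genes tested. The 47.5% thus cannot be read as an excess of the list. The shares of the role groups below are likewise not matched for level. The median log2 fold change was -0.05. Igfbpl1 was listed at 0 in every library. The other carriers outside the 10 genes were also near 0, with Igfals at most 0.241 FPKM and Igfbp1, which lies 3539 bases from Igfbp3, at 0 in all libraries but 1.

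All 6 genes of the binding protein proteases and of the stanniocalcins that inhibit pappalysin were called, 4 lower and 2 higher in 3D. Over all genes, 41.5% were called. The serine protease Htra1, which can cut Igfbp5, went from 218 ± 64.5 to 1.12 ± 0.870 FPKM (SD, n = 4 each), a log2 fold change of -6.73 (SE 0.31, adjusted p = 3.7e-06, limma). The metalloprotease Adam12 went from 39.7 ± 18.2 to 1.48 ± 0.491 FPKM (log2 fold change of -3.94, SE 0.34, adjusted p = 8.5e-05, limma). The other 4 genes of this list are named after their values were seen. Of these, Pappa2 was at most 0.123 FPKM in any library. Pappa, the pappalysin that cuts Igfbp4, was at 6.33 to 19.5 FPKM in 2D and at most 0.00757 FPKM in 3D, at least 579-fold lower on the deposited values (adjusted p = 1.0e-04, limma). Its inhibitors Stc1 and Stc2 went the other way, with log2 fold changes of 3.16 (SE 0.20, adjusted p = 2.0e-05, limma) and 2.23 (SE 0.38, adjusted p = 0.00253, limma). Stc1 was at 0.672 ± 0.184 FPKM in 2D and 14.2 ± 3.55 FPKM in 3D, and Stc2 at 2.96 ± 1.59 and 17.3 ± 7.11 FPKM (SD, n = 4 each).

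Of 3 related receptors and sorting genes, 2 were higher in 3D, beside 21.2% of all genes. Insr, the insulin receptor, was at 6.54 ± 0.335 FPKM in 2D and 11.3 ± 1.33 FPKM in 3D (SD, n = 4 each), with a log2 fold change of 0.70 (SE 0.11, adjusted p = 0.00159, limma). M6pr, the smaller mannose-6-phosphate receptor, is named after its values were seen and rose by 0.80 (SE 0.14, adjusted p = 0.00294, limma), but its call was lost on the values as deposited (log2 fold change of 0.24, adjusted p = 0.313, limma, over a range of 0.00217 to 0.328). The insulin-receptor-related gene Insrr was not called (log2 fold change of -0.04, adjusted p = 0.361, limma).

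Among 10 receptor adaptors, 1 was higher and 2 were lower, which is 30% called beside 41.5% of all genes. Grb10 and Grb14, adaptors that bind the insulin and IGF receptors and dampen their signal, both fell. Grb10 was at 58.1 ± 24.7 FPKM in 2D and 6.99 ± 8.41 FPKM in 3D (log2 fold change of -3.44, SE 0.79, adjusted p = 0.00965, limma). Grb14 was at 9.82 ± 2.92 and 1.82 ± 1.35 FPKM (log2 fold change of -2.02, SE 0.37, adjusted p = 0.00353, limma). The adaptor higher in 3D, named after its values were seen, was Irs2, with a log2 fold change of 0.71 (SE 0.21, adjusted p = 0.0263, limma). Its call was lost without the 2D library of mouse 2 or 5 or the 3D library of mouse 5 or 7 (adjusted p of 0.0674, 0.0648, 0.0642 and 0.0651, limma).

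In the PI3K, AKT, mTOR and FOXO arm, 5 of 20 genes were higher and 5 lower, which is 50% called beside 41.5% of all genes. At a mean of at least 1 FPKM a larger share of all genes was called. The 50% thus cannot be read as an excess of the arm. Foxo1, a transcription factor that AKT keeps out of the nucleus, rose from 2.59 ± 0.694 to 18.1 ± 3.83 FPKM (log2 fold change of 2.41, SE 0.21, adjusted p = 8.5e-05, limma). Pik3r3, a regulatory subunit of PI3K, rose from 6.76 ± 0.665 to 33.9 ± 15.5 FPKM (log2 fold change of 2.08, SE 0.28, adjusted p = 7.6e-04, limma). Among the genes lower in 3D, the kinase Akt1, named after its values were seen, went from 134 ± 19.1 to 80.5 ± 7.35 FPKM (SD, n = 4 each), with an adjusted p of 0.00191 in limma.

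In the RAS and MAPK arm, 0 of 9 genes were higher and 3 were lower, which is 33.3% called beside 41.5% of all genes. The kinase Map2k1 went from 84.7 ± 3.28 to 44.0 ± 3.84 FPKM (log2 fold change of -0.93, SE 0.08, adjusted p = 6.5e-05, limma).

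All 3 Igf2 mRNA-binding protein genes fell, where 20.3% of all genes were called lower. Igf2bp2 fell the least (log2 fold change of -1.05, SE 0.34, adjusted p = 0.0397, limma). Igf2bp3 was at 3.75 to 16.5 FPKM in 2D and 0.915 to 1.35 FPKM in 3D (log2 fold change of -2.05, SE 0.37, adjusted p = 0.00346, limma). Igf2bp1 was at 1.38 to 2.83 FPKM and at most 0.0415 FPKM, respectively (log2 fold change of -1.49, SE 0.14, adjusted p = 1.4e-04, limma). Of the 4 genes of the growth hormone input, which drives Igf1 transcription in many tissues, 1 was called, beside 41.5% of all genes. This was the receptor Ghr, which went from 36.7 ± 9.39 to 8.46 ± 2.41 FPKM (SD, n = 4 each), with a log2 fold change between -2.59 and -1.41 (95% confidence interval, adjusted p = 6.0e-04, limma). With mice 4 and 5 alone, the calls of Insr, Grb10, Stc2, Igf2bp3, M6pr, Irs2 and Akt1 were lost (adjusted p of 0.0680, 0.169, 0.0746, 0.139, 0.0908, 0.342 and 0.127, limma).

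**Figure D4:**
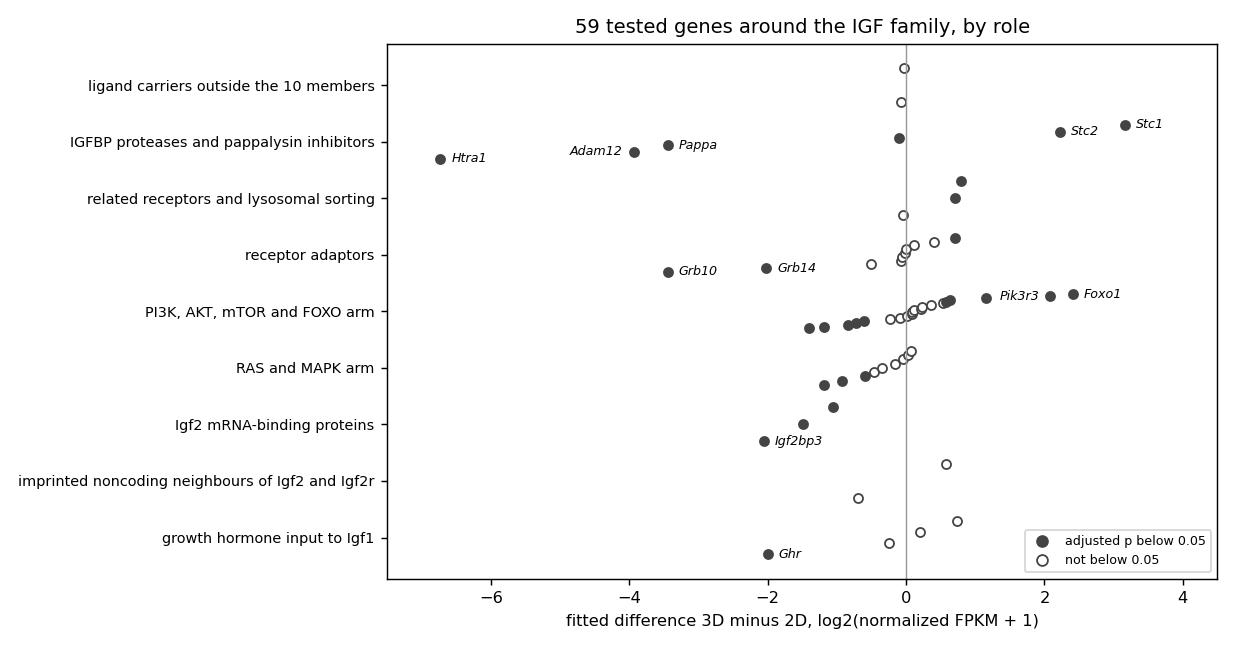
Fitted log2 fold change (3D minus 2D, log2(FPKM + 1)) of the 59 tested genes of the pathway list, 1 point per gene, in rows by role, with filled points for an adjusted p below 0.05. Htra1, Adam12 and Pappa lie far to the left, and Stc1, Stc2, Foxo1 and Pik3r3 far to the right.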

How the data were processed

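Total RNA of 4 2D and 4 3D cultures was sequenced, 1 library each, and grouped by the sample titles. The authors depleted ribosomal RNA, made directional libraries, checked and trimmed reads with FastQC, FASTX_Trimmer and BBMap, mapped them with TopHat (mm10, per the labels) and computed FPKM with Cufflinks. The deposited FPKM values hold neither counts nor a quantile normalization, and the annotation is not given in the sources used here.

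Genes at 0 in every library (5484) were left out. The others were quantile normalized, transformed to log2(FPKM + 1) and fitted with limma 3.58.1 in R 4.3.3 (empirical Bayes with intensity trend, no covariates, Benjamini-Hochberg over 18862 genes). A gene was called at an adjusted p below 0.05 without a limit on the fold. The model was tested on simulated data. The steps that separate low FPKM values gave an estimate of depth, from 875 single-transcript genes of at least 3000 nt in GENCODE M21, which also gave the coordinates. Of the low values used, 69.1% to 79.8% per library lay within 0.15 of a whole number of fragments, so counts of fragments are estimates. A bound sets the mean deposited 2D level against the highest level that 3 fragments give in a 3D library. Start windows were taken from RefSeq. Each library is a mouse of its own within a culture, and whether cultures were handled in batches is not given in the sources used here.

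Named genes were the 10 IGF genes, Igfbp1, Igfbpl1, Igfals, Insr and Insrr, and in each other role group up to 2 called genes with the largest fitted change and no overlap between cultures. Others are named where stated. Not every gene so chosen is reported here. The rule for marker genes was to name only those at or near 0 in all libraries. Many of the marker genes named above fall outside this rule. The genes and lists were chosen with earlier results of these data known.

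The mouse number marks the same animal for mice 4 and 5. Deviations of a mouse's libraries from their culture means correlated at -0.05 (mouse 4) and -0.11 (mouse 5) over 12577 genes. The alternatives were the values as deposited, median-ratio scaling, genes under 300 nt left out, no trend, a pseudocount of 0.1, a minimum mean of 1 FPKM, the mouse as a random effect or as a block, mice 4 and 5 alone, and leaving out each library. A block with mice 4 and 5 exchanged in 3D and bounds, shares, ratios, overlaps and signs without a library or on deposited values were chosen after seeing the data.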

Additional observations from a re-analysis of the deposited data

Results flagged for a closer look

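In 64 groups of 4 libraries (32 genes in each culture), 6 had a library set apart from the other 3 by a gap that, over the group's range on the log2(FPKM + 1) scale, was above Dixon's 95% critical value. By chance about 1 in 20 groups would be flagged. Igf2 stood at 6.59 FPKM in the 2D library of mouse 4, against 0.0797 to 0.314 FPKM in the other 2D libraries. In the same library H19, the noncoding imprinted neighbour of Igf2, stood at 1.94 FPKM against 0.258 to 0.398 FPKM, and Igfals at 0.241 FPKM against 0.131 to 0.144 FPKM. Igfbp1 stood at 0.0720 FPKM in mouse 5 in 2D and at 0 in the other 2D libraries. Insrr stood at 0.0166 FPKM in mouse 5 in 3D and Pappa at 0.00757 FPKM in mouse 7 in 3D, and both were at 0 in the other 3D libraries. The values of Igfbp1, Insrr and Pappa are each about 1 fragment against none, which sets a library apart by construction, so the rate of 1 in 20 does not hold for them. H19 was named after its values were seen, so the rate does not hold for it either. The flags of Igf2, H19 and Igfals all fall in the 2D library of mouse 4. The groups share libraries and are not independent, so the number of flags cannot be set against that rate.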

How the results depend on the processing

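With the mouse as a replicate block, limma called 0 genes higher and 0 lower over all genes, over the 10 IGF genes and over the pathway list. At an unadjusted p below 0.05 this fit had 2833 genes higher and 2383 lower, 8 of the 10 IGF genes and 17 of the pathway list, with 1 residual degree of freedom. With mice 4 and 5 exchanged in 3D, a pairing chosen after seeing the data, the counts were again 0 at an adjusted p, and 2902 higher and 2404 lower at an unadjusted p. With only mice 4 and 5, 1788 genes were higher and 1432 lower, and 5 and 7 of the pathway list. Leaving out 1 library at a time gave 3 to 4 IGF genes higher and 4 to 5 lower, 9 to 10 and 16 to 19 pathway genes, and 3393 to 4051 and 3204 to 3835 of all genes. Without the block, Igf1, Igf1r, Igf2r, Igfbp2, Igfbp4 and Igfbp6 were called under every alternative run. The values as deposited moved the log2 fold changes of Igf1r, Igf2r and Igfbp7 by -0.29, -0.33 and -0.50, and turned no fitted direction. Within mouse 5, the difference of Igf2 on the log2 scale turned from -0.04 to 0.0023 on these values. The cause of these changes was not tested. Levels near or under 3 fragments, as for Igf1, Igf2 and Igfbp6 in 3D, cannot be ordered at this depth.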

Other observations

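Igf2 and H19, imprinted neighbours 72622 bases apart on chromosome 7, were both highest in the 2D library of mouse 4. H19, named after its values were seen, was at 0.398, 0.305, 1.94 and 0.258 FPKM in 2D (mice 2 to 5, in order) and at 0 in every 3D library. Its log2 fold change of -0.69 (SE 0.26) was not called (adjusted p = 0.0672, limma), but it passed without the 2D library of mouse 4 (log2 fold change of -0.40, adjusted p = 4.9e-04, limma) and with a pseudocount of 0.1 (adjusted p = 0.00410, limma), within a range of 4.9e-04 to 0.241 over the alternatives without a mouse block. Against the level of 3 fragments it was at least 6.97-fold lower in 3D, and at least 2.52-fold lower without the 2D library of mouse 4. Airn, the antisense transcript across Igf2r, was at 2.10 to 6.77 FPKM in 2D and 2.70 to 11.6 FPKM in 3D, and these groups overlapped (log2 fold change of 0.57, adjusted p = 0.377, limma).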
